A study of Mus musculus with 9 samples.

Results

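Processed pseudogenes are copies of messenger RNAs that were reverse transcribed and inserted elsewhere in the genome, as LINE-1 machinery does in the germ line. Such a copy usually lacks the introns and the promoter of the gene it came from, its parent gene, and is generally read into RNA from a promoter or transcription unit near which it landed. The members described here are the 101 genes annotated as processed or transcribed processed pseudogenes, with names not beginning with Rpl or Rps, whose mean level over 9 libraries of mouse eggs was at least 20 CPM (CPM is a gene's share of the library's counts, scaled so that a library sums to 1e+06). They were 101 of 3344 such pseudogenes and of 30153 genes in the deposited tables. The level itself chose them, so their high level is a description and not a finding. Of the members, 86 carry the plain annotation and 15 are annotated as transcribed.

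Poly-A RNA was sequenced from pools of MII oocytes, eggs arrested at the second meiotic metaphase. All 3 groups came from females aged 4 weeks of the genotype Sycp3CreERT2/+; Rosa26nT-nG/+ on a mixed background, superovulated with 5 IU PMSG and, after 48 h, 5 IU hCG, and collected 13 h later. Sycp3CreERT2 is a tamoxifen-inducible Cre carried at a gene active in meiotic germ cells, and Rosa26nT-nG is a reporter that changes from nuclear red to nuclear green fluorescence once Cre has acted. Cumulus cells were removed with hyaluronidase and oocytes were picked by hand into GFP High, GFP Low and RFP, with 3 libraries each. No untreated or Cre-negative group was analysed here, and the tamoxifen schedule is not given in the sources used here. The pools listed for GFP High held 15, 15 and 16 oocytes, those for GFP Low 49, 52 and 57, and those for RFP 88, 87 and 100, so pool size and group cannot be told apart. Nothing in the labels says that the replicates came from separate animals, so p-values measure only the spread between these libraries.

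The libraries held 19381677 to 27746256 counts, so a gene at 20 CPM rested on at least 388 reads. The eGFP transcript ranged from 36.2 to 43.3 CPM for GFP High, from 14.5 to 23.9 for GFP Low and from 0 to 0.594 for RFP, in the order of the labels. All 10 oocyte markers were found, summing to 8683 to 10287 CPM per library. Of 15 cumulus and granulosa markers 14 were found, and their sum ran from 8.82 to 65.7 CPM. It was highest in GFP High 1, GFP Low 1 and RFP 2, at 53.1, 46.6 and 65.7 CPM.

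A copy that closely resembles its parent gene can share sequencing reads with it, so the sequences are shown first. Each pair below is a 90-base window of the coding part of the match, read 5′ to 3′ on the transcript strand from the GENCODE M21 transcripts (build GRCm38), and capitals mark bases that differ between copy and parent. The 4 pairs were chosen after the values were seen, because they carry the results that follow. Parent coordinates run across introns where the window joins exons. Gpx4-ps2 lies at chr10:45875724-45875813 on the plus strand in this window and Gpx4 at chr10:80055116-80056186 on the plus strand, where the window crosses 3 exon junctions.
Gpx4-ps2: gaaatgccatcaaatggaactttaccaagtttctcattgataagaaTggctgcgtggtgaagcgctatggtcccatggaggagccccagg
Gpx4: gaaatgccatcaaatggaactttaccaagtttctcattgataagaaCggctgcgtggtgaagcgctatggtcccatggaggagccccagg
The next pair is Eif4a-ps4 at chr1:60704376-60704465 (plus strand) and Eif4a1 at chr11:69668734-69669147 (minus strand, 1 junction).
Eif4a-ps4: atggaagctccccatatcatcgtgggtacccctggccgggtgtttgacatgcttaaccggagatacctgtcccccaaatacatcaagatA
Eif4a1: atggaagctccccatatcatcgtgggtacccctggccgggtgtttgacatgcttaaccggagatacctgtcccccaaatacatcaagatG
Gm10250 at chr15:5120781-5120870 (minus strand) copies Atp5h at chr11:115415879-115416878 (minus strand, 2 junctions).
Gm10250: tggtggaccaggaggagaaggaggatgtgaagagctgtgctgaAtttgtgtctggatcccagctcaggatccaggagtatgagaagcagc
Atp5h: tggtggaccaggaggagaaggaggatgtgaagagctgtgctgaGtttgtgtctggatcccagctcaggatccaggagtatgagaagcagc
Hist1h2al at chr13:51202946-51203035 (minus strand) is set beside Hist2h2aa2 at chr3:96240116-96240205 (minus strand), a histone gene whose coding sequence has no junction in the window.
Hist1h2al: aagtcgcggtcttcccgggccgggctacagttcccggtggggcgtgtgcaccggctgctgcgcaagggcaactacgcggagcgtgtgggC
Hist2h2aa2: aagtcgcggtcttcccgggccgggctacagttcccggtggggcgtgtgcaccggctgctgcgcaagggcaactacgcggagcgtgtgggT
Each of these windows holds 1 difference between the copy and the gene set beside it. Hist1h2al matched Hist2h2aa1 equally well.

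A parent was matched for 97 of the 101 members, at an identity of at least 80% over at least 50% of the copy. The 4 without a match were Speer5-ps1, BC022960, Gm6150 and 2810025M15Rik, and 2 members (AC133889.2 and Hist1h2al) matched several parents equally well. The median identity was 99.5%, 70 members reached 99%, 18 were identical over the aligned part, and 10 lay below 95%, the lowest at 84.3%. In 94 of the 97 matches the copy ran across at least 1 exon junction of the parent, with a median of 4 and a maximum of 19. The 3 without a junction were Gm1821, Zfp813-ps and Hist1h2al. Of the 95 members with a single parent, 88 lay on another chromosome than that parent and 7 on the same one. All 101 members were found in GENCODE M21, 99 with the same coordinates, 87 of them annotated as a single exon.

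Every stretch of 100 bases in a copy was searched for among all annotated transcripts of other genes. The median member had 28.5% of its stretches in no other gene, 32 members had at least 50%, and 19 had none. The 19 with none took 0.174% of all counts, at mean levels between 23.1 and 234.6 CPM. How featureCounts, the counting tool named in the submitters' processing notes, was set for reads with several matches is not given in the sources used here. For these 19, reads of 100 bases within the copy would match another gene equally well, and whether their counts came from the copy or from that gene was not tested.

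Position relative to other genes also bears on whose RNA was counted. No other gene overlapped 73 members, 23 lay in an intron of another gene (11 on its strand only, 12 on the opposite strand only), and 5 shared exon bases with another gene. BC022960 shares bases with Gm15246, on the same strand, which itself averaged 41.5 CPM, and 2810025M15Rik lies across an exon of Rasal2, on the opposite strand, at 15.5 CPM. The other 3 were Gm12715, Speer5-ps1 and Hist1h2al. Among the intronic copies, Gm12226 lies in Meikin, which encodes a meiotic kinetochore protein, on its strand, and Gm12346 lies in Ssh2, also on its strand. Whether the counting used strand is not given in the sources used here.

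Members took about 1% of all counts in every group. Their summed share was 0.987%, 1.098% and 0.953% in GFP High 1, 2 and 3. GFP Low 1, 2 and 3 had 0.899%, 0.965% and 0.974%, and RFP 1, 2 and 3 had 0.995%, 0.955% and 0.871%. The group means were 1.01% ± 0.0760, 0.946% ± 0.0411 and 0.940% ± 0.0632 (SD, n = 3). The ranges of all 3 groups overlapped. The members held 78.5% of the counts of all 3344 pseudogenes of their kind.

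The distribution within the set was steep. Gm1821, a copy of the polyubiquitin gene Ubb, alone held 21.98% of the members' counts and the 10 most abundant held 43.5%. In replicate order, GFP High had 1928, 2779 and 2058 CPM of Gm1821, GFP Low had 1633, 2169 and 2398, and RFP had 2391, 1842 and 1920. Its 3 groups overlapped, and the fitted log2 difference of GFP High from RFP was 0.15 (SE 0.15), with an edgeR adjusted p of 0.997. Means of 57 members reached 50 CPM, 21 reached 100 CPM, and 34 lay under 40 CPM. Just inside the limit of 20 CPM were Gm8822 (21.1 CPM), Gm5527 (21.1) and Gm5705 (20.4), and just outside were Gm5177 (19.99), Gm12138 (19.6) and Gm4782 (19.2).

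**Figure D1:**
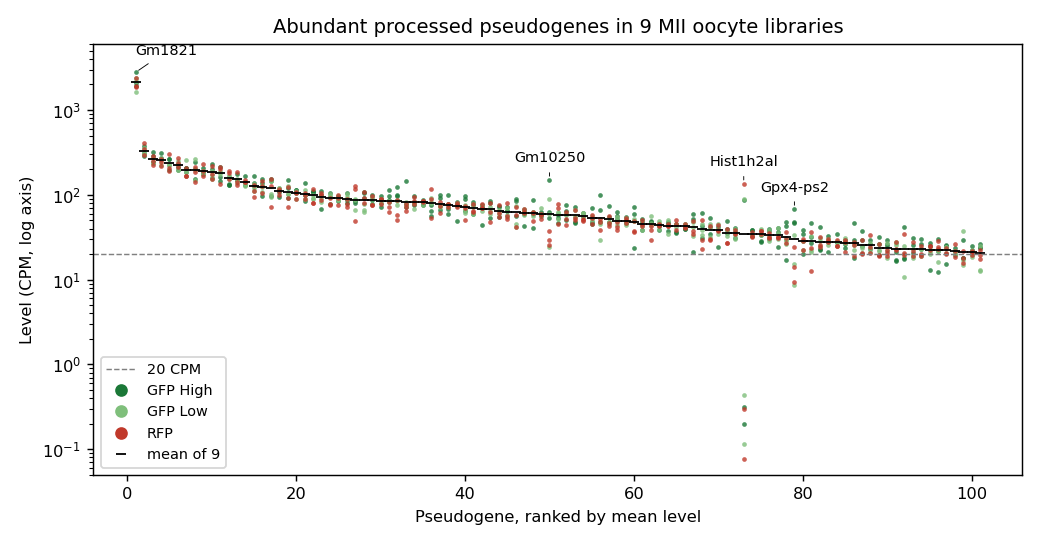
Level of each of the 101 pseudogenes in CPM (log axis) in the 9 libraries, ranked by mean level, with one point per library coloured by group, a bar at the mean and a dashed line at 20 CPM. Gm1821 stands at 1633 to 2779 CPM, above every other member, and Hist1h2al is spread from under 1 CPM to over 100 CPM.

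Members were grouped by the role of the parent, read from the first letters of its symbol, so the groups are not complete. In this grouping 16 members copy ribosomal protein genes although their own names do not show it. Another 12 were placed with chromatin and nuclear proteins, 8 with RNA binding and splicing proteins and 6 with chaperones. The 5 placed with translation factors copy Eif4a1, Naca, Eif2s2, Tpt1 and Eif4e1b. A further 3 each were placed with mitochondrial proteins, the cytoskeleton and the ubiquitin, proteasome and cell cycle group. For 39 members the symbol of the parent was on no list, among them copies of Crnkl1 and of the polycomb-associated gene Phf19. Of the rest, 1 (AC133889.2) has tied parents, 4 have no parent matched, and Gpx4-ps2 stands alone. The ubiquitin group summed to 2304 CPM, the ribosomal protein copies to 1055, the RNA binding group to 987, the chromatin group to 843 and the chaperone group to 737.9. Per kb of deposited gene length, a scale that depends on the length used, the highest members after Gm1821 (2183 CPM per kb) were AC133889.2 at 711 and Gm15772 at 442, a copy of Rpl26. They were followed by Gm10123 at 368, from the prolyl isomerase gene Ppia, by Gm10241 at 344, from the ubiquitin-like modifier gene Sumo2, and by Gm18765 at 342, from the splicing factor gene Crnkl1.

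Of the 81 parents, 7 had more than 1 copy among the members. A family here means a parent and its copies among the members only. Copies under 20 CPM, copies named Rpl or Rps and other coding genes that matched were left out of the shares. Hmgb1, which encodes a DNA-bending chromatin protein, had 6 (Gm15387, Gm5518, Hmgb1-ps2, Gm21596, Hmgb1-ps4 and Gm5527). Those 6 summed to 480.3 CPM against 85.5 CPM counted on Hmgb1 itself, or 84.9% of the counts of the family. Hnrnpa3, which encodes an RNA-binding protein of nuclear ribonucleoprotein particles, had 4 (Gm11847, Gm5641, Gm12960 and Gm8991), which summed to 580.2 CPM against 14.8 CPM on the parent, or 97.5%. The 2 copies of Rpl21, Gm10163 and Gm10240, took 98.7% of the counts of their family, and the 3 of Rpl29 took 72.5%. Of the copies in these families, Gm15387, Gm5641, Gm10163, Gm10240, Gm13841 and Gm8210 are among the 19 members without a 100-base stretch of their own. The shares therefore describe assigned counts, and the source of those counts was not tested. Across all 81 families the copies held a median of 28.4% of the counts, and more than 50% in 20 families.

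Copy and parent were set side by side in 95 pairs. Per kb of the deposited gene lengths the copy was higher in 65 pairs and the parent in 30, with a median ratio of 1.93. That count depended on the length used. Per kb of the matched transcripts the copy was higher in 53 pairs (median ratio 1.144), and in CPM without length in 26 (median ratio 0.466). The deposited length of a parent can exceed its matched transcript, as for Rpl21, with 3400 deposited bases against 1856 in the matched transcript.

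Gm10163 and Gm12346 kept their side on each of these scales. Gm10163 was 319-fold above Rpl21 per kb of deposited length, 174-fold per kb of matched transcript and 45.2-fold in CPM. Gm10163 is among the 19 members without a 100-base stretch of its own, so these ratios compare counts assigned to the copy and to the parent, and the source of those counts was not tested. Gm12346 was the lowest per kb relative to its parent, the chaperone gene Hsp90aa1, with a ratio of 0.0320. In CPM it stood at 156 against 8521, a ratio of 0.0183, and only Gm13414 against Dnajb6 was lower, at 0.0153. In GFP High 1, 2 and 3 Gm10163 was at 138, 168 and 127 CPM while Rpl21 was at 0.844, 3.29 and 4.36 CPM.

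Close resemblance was not needed for a copy to exceed its parent. AA619741, with 84.3% identity to the polycomb-associated gene Phf19 and 100% of its 100-base stretches in no other gene, averaged 102 CPM against 0.493 CPM for Phf19. Gm15681 (90.7% identity to Ppp4r1) stood at 52.1 against 1.91 CPM per kb of deposited length, and Gm5434 (93.1% identity to Ube2f) at 56.2 against 0.613. Grouped by identity, the copy was higher per kb in 15 of 18 pairs at 100%, in 34 of 51 from 99% to under 100%, in 9 of 17 from 95% to under 99%, and in 7 of 9 below 95%. Per kb of the matched transcripts these counts were 13, 26, 7 and 7, and in CPM without length they were 5, 12, 3 and 6, so the parent was higher in most pairs of the first 3 classes on that scale. The median share of 100-base stretches in no other gene was 0%, 28.2%, 61.6% and 98.6% in these identity classes.

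**Figure D2:**
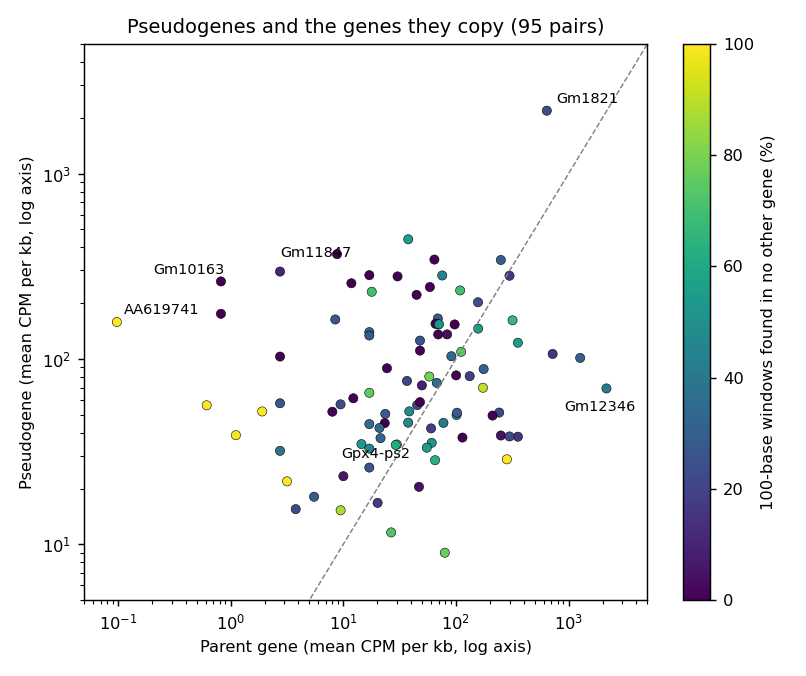
Mean level over 9 libraries of each pseudogene (vertical) and its parent gene (horizontal) in CPM per kb of deposited gene length, both on log axes, for 95 pairs, coloured by the percentage of the copy's 100-base stretches found in no other gene. Points above the dashed line of equality are the 65 pairs with the copy higher, and Gm12346 lies farthest below it.

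The groups were set against each other to see whether ovulated eggs of different reporter colour carry different levels of these RNAs. With edgeR's quasi-likelihood test and Benjamini-Hochberg adjustment over all genes tested, no member passed an adjusted p of 0.05 in any of the 3 comparisons. Of the members tested in GFP High against RFP that was 0 of 100, beside 0.0135% of all genes, in GFP Low against RFP 0 of 101 beside 0.0197%, and in GFP High against GFP Low 0 of 101 beside 0.0%. Hist1h2al was not tested in the first of these because it did not pass the filter on low counts. DESeq2 called 1 member in GFP High against RFP (Gpx4-ps2, adjusted p = 0.00012) and 0 in the other comparisons. How many genes of all kinds it called is not given here. In the authors' deposited table for GFP High against RFP, Gpx4-ps2 was likewise the only member under 0.05 (log2 fold change 1.79, adjusted p 1.21e-04), among 12 genes in all.

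At an unadjusted edgeR p under 0.05 there were 9 members in GFP High against RFP (8 higher, 1 lower), beside 4.09% of all genes (2.27% higher, 1.81% lower). In GFP Low against RFP there were 7 (6 higher, 1 lower), beside 2.62% (1.28% and 1.34%), and in GFP High against GFP Low 8 (5 higher, 3 lower), beside 3.77% (1.85% and 1.92%). Libraries were fully separated by group for 12 of 100 members in GFP High against RFP, beside 11.9% of all genes, for 7 of 101 in GFP Low against RFP, beside 7.68%, and for 11 of 101 in GFP High against GFP Low, beside 11.5%. The counts of separated members were thus near the background in each comparison.

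In both comparisons of GFP High, more members had a fold change above 0 than below it. Their fitted log2 fold change was above 0 for 74 of 100 members in GFP High against RFP, beside 49.3% of all genes, with a median of 0.12 beside -0.01 over all genes. In GFP High against GFP Low it was above 0 for 72 of 101, beside 49.4%, with a median of 0.09. Without GFP High 2 these were 62 and 0.05. In GFP Low against RFP it was above 0 for 57 of 101, beside 48.9%, with a median of 0.02. Without RFP 3 that count was 44 and the median -0.02, and the median was also at or just under 0 without GFP Low 2 or GFP Low 3. Each pair of these comparisons shares the libraries of 1 group. Members that copy the same parent can also share reads, so the members are not independent. The median for parent genes was 0.02 in both comparisons that use GFP High and 0.00 in the remaining one. In GFP High against RFP the fold change was above 0 for 22 of 31 members with at least 50% of their 100-base stretches in no other gene (median 0.10) and for 52 of 69 with less (median 0.12).

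The 16 copies of ribosomal protein genes were also taken as a group. Summed over the 16, GFP High 1, 2 and 3 had 1166, 1337 and 941 CPM, GFP Low had 984, 1027 and 1098, and RFP had 983, 1091 and 870.02. GFP High 2 was the highest library and the groups overlapped. In GFP High against RFP 15 of 16 had a fold change above 0 (median 0.24), in GFP Low against RFP 13 (median 0.11) and in GFP High against GFP Low 13 (median 0.22), with none past the adjusted threshold. With 1 library left out at a time, the count in GFP High against RFP ranged from 11 to 15. Without GFP High 2, the count in GFP High against GFP Low was 7, and without RFP 3 the count in GFP Low against RFP was 8. The 5 members placed by symbol with the translation factors include copies of Naca and Tpt1 beside those of Eif4a1, Eif2s2 and Eif4e1b. All 5 were above 0 in GFP High against RFP (median 0.31) and in GFP High against GFP Low (median 0.40). In GFP Low against RFP 1 of 5 was above 0 (median -0.05). In GFP High against RFP, all 3 mitochondrial copies (median 0.35) and all 3 cytoskeleton copies (median 0.27) were above 0 too. Chromatin copies were above 0 in 8 of 11, chaperone copies in 3 of 6 and RNA binding copies in 4 of 8. Among all members it was 74 of 100.

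**Figure D3:**
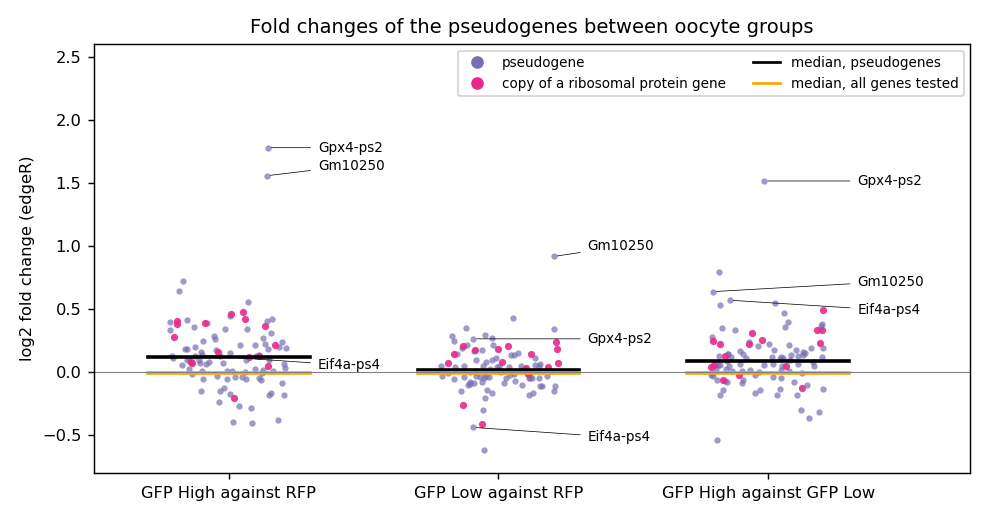
Fitted log2 fold changes (edgeR) of the pseudogenes in the 3 comparisons, with one point per pseudogene spread sideways for visibility, copies of ribosomal protein genes in pink, and bars at the median of the pseudogenes and of all genes tested. The medians of the pseudogenes are 0.12, 0.02 and 0.09, and Gpx4-ps2 is the highest point in both comparisons of GFP High, at 1.78 and 1.51.

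Gpx4-ps2 had the smallest p of all members in GFP High against RFP. It copies Gpx4, which encodes a selenoenzyme that reduces lipid peroxides, with 99.7% identity over 97.4% of its length, and 32.2% of its 100-base stretches occur in no other gene. GFP High 1, 2 and 3 had 47.7, 68.3 and 46.4 CPM, GFP Low had 33.3, 8.67 and 15.5, and RFP had 14.02, 24.5 and 9.43. All GFP High libraries lay above all others. Against RFP the log2 fold change was 1.78 (SE 0.33) and against GFP Low 1.51 (SE 0.40), with edgeR adjusted p of 0.997 and 0.998. GFP Low and RFP overlapped, with 0.26 (SE 0.41).

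Counts on Gpx4 itself lay the other way. GFP High had 28.7, 25.4 and 20.2 CPM of Gpx4, GFP Low had 25.5, 52.4 and 61.95, and RFP had 36.1, 43.9 and 37.9. Every GFP High library was below every RFP library, at a fitted log2 difference of -0.65 (SE 0.19) and an edgeR adjusted p of 0.997. Against GFP Low it was -0.91 (SE 0.29), with 1 GFP Low library inside the range of GFP High. Of the pair's counts, the copy thus held 62.5%, 72.9% and 69.6% for GFP High, 56.6%, 14.2% and 19.97% for GFP Low, and 27.97%, 35.8% and 19.9% for RFP. GFP Low 1 stood apart from its group and near GFP High.

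Copy and parent were also added up. Their sum was 76.4, 93.7 and 66.6 CPM for GFP High, 58.8, 61.05 and 77.4 for GFP Low and 50.1, 68.4 and 47.3 for RFP, so all groups overlapped. The fold change of the sum was 0.53 (SE 0.18) in GFP High against RFP and 0.27 (SE 0.16) in GFP High against GFP Low, with edgeR adjusted p of 0.997 and 0.998. The sum was an alternative added after the data were seen. How reads were divided between copy and parent was not tested.

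Eif4a-ps4 was lowest in GFP Low. It copies Eif4a1, which encodes an RNA helicase of translation initiation, and differs from it at 1 of 1218 aligned bases. GFP High had 107, 105 and 92.4 CPM, GFP Low had 77.4, 65.4 and 62.6, and RFP had 107, 80.1 and 92.9. All GFP Low libraries lay below all others. The log2 fold change was 0.57 in GFP High against GFP Low (SE 0.13, edgeR adjusted p = 0.998) and -0.44 in GFP Low against RFP (SE 0.12, adjusted p = 1.000).

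Eif4a1 was again opposite to its copy. GFP High had 207, 182 and 192 CPM of Eif4a1, GFP Low had 256, 230 and 258, and RFP had 184, 235 and 199.6. Its log2 fold change was -0.35 in GFP High against GFP Low (SE 0.09, edgeR adjusted p = 0.998), where the groups did not overlap, and 0.28 in GFP Low against RFP (SE 0.10), where they did. The sum of both ran from 284 to 334 CPM over the 9 libraries, with a fold change of -0.10 (SE 0.08) in GFP High against GFP Low. The share of the pair counted on the copy was 19.5% to 23.2% in GFP Low, 32.5% to 36.5% in GFP High and 25.5% to 36.7% in RFP.

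Signs were compared in all pairs. The copy and its parent had fold changes of opposite sign in 43 of 95 pairs in GFP High against RFP, in 47 of 95 in GFP Low against RFP and in 44 of 94 in GFP High against GFP Low. Across pairs, which are not independent replicates and share libraries and reads, Pearson's r between the fold changes of copy and parent was -0.07, -0.00 and -0.26 in the same order. No parent gene passed the edgeR adjusted threshold. At an unadjusted edgeR p under 0.05 there were 6 of 81, 4 of 81 and 12 of 80, beside 4.09%, 2.62% and 3.77% of all genes.

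Gm10250 varied widely between libraries within GFP High and within GFP Low, as well as between groups. It copies Atp5h, a subunit gene of mitochondrial ATP synthase, at 98.97% identity. GFP High had 63.2, 150.3 and 52.6 CPM, GFP Low had 88.4, 59.6 and 24.5, and RFP had 25.5, 37.4 and 29.03. All GFP High libraries lay above all RFP libraries, GFP High 2 far above the rest, while GFP Low overlapped both. The log2 fold change was 1.56 against RFP (SE 0.36, edgeR adjusted p = 0.997), and 0.92 without GFP High 2. Atp5h itself stayed between 453 and 609 CPM, with a fold change of 0.01 (SE 0.12).

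3 further members had small p-values in GFP High. Gm12751 is identical to its parent Polr1d, a subunit gene of RNA polymerases I and III, over all 381 bases. GFP High had 100.3, 123 and 95.9 CPM, GFP Low had 83.5, 87.9 and 74.9, and RFP had 58.4, 50.6 and 86.1. The log2 fold change against RFP was 0.72 (SE 0.20), and that of Gm12751 and Polr1d summed was 0.25 (SE 0.12). Gm12751 has no 100-base stretch of its own, and the source of its counts was not tested. RFP 3 lay above the other RFP libraries, and in RFP 3 Polr1d was at 89.2 CPM, below every other library. Gm12346, the copy of Hsp90aa1, stood at 134, 129.7 and 131 CPM for GFP High, at 155, 167 and 165 for GFP Low and at 193, 179 and 152 for RFP. It was lowest in GFP High without overlap, at -0.39 (SE 0.11) against RFP and -0.30 (SE 0.09) against GFP Low. Hsp90aa1, at 7741 to 8931 CPM, had 0.06 and 0.03. Gm13092, a copy of the spliceosomal gene Snrpf, stood at 47.7, 98.5 and 66.1 CPM for GFP High, at 45.6, 48.2 and 29.4 for GFP Low and at 47.3, 51.7 and 38.8 for RFP. Its fold change against GFP Low was 0.79 (SE 0.27, edgeR adjusted p = 0.998), and 0.46 without GFP High 2.

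**Figure D4:**
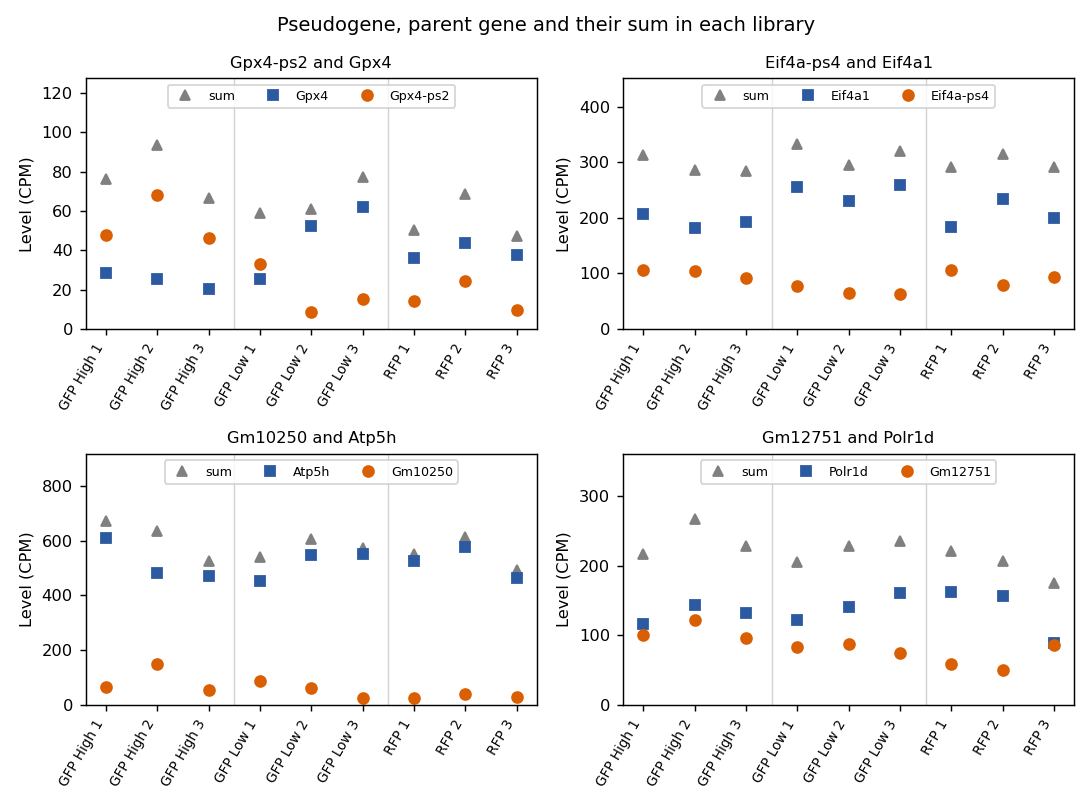
Levels in CPM of 4 pseudogenes (orange circles), their parent genes (blue squares) and the sum of both (grey triangles) in each of the 9 libraries, with grey lines between groups and vertical axes starting at 0. In GFP High, Gpx4-ps2 lies above Gpx4 in all 3 libraries, and in RFP it lies below it in all 3.

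Other members of small p changed by less. Gm10240, a copy of Rpl21 without a 100-base stretch of its own, was at 0.46 (SE 0.15) in GFP High against RFP. Gm6166, from the fatty acid binding protein gene Fabp5, Gm5776, from the mitochondrial ribosome gene Mrps33, and Gm10297, from Gkap1, were at 0.42, 0.27 and 0.29 in GFP Low against RFP, with SE of 0.15, 0.10 and 0.11. None of these passed the adjusted threshold.

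Members varied more over the libraries than protein-coding genes of the same minimum level. The median coefficient of variation over 9 libraries was 15.5% for members and 11.5% for 5811 protein-coding genes at 20 CPM or more. It was above 30% for 8.91% of members and 1.65% of those genes. Within groups the medians were 15.2% and 13.2% for GFP High, 9.61% and 7.35% for GFP Low, and 13.9% and 8.53% for RFP. The levels of the 2 sets differ, and this comparison was not tested. The ratio of copy to parent had a median SD of 0.30 on the log2 scale over libraries, with 4 pairs above 1. Those were Gpx4-ps2 and Gpx4, Gm15772 and Rpl26, Gm10074 and Lsm5, and Gm7536 and Rpl27a.

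Hist1h2al was counted in 3 libraries and almost nowhere else. It resembles genes of histone H2A, the core histone of the nucleosome. GFP High 1 held 2392 counts of it, GFP Low 1 held 1712 and RFP 2 held 3072, against 2 to 12 counts in each of the other 6 libraries. In CPM these were 87.8, 88.3 and 136 against at most 0.432. It therefore reached 20 CPM only through 1 library of each group, and its fold changes compare single libraries. The same 3 libraries had the highest sums of cumulus and granulosa markers, 46.6 to 65.7 CPM against 8.82 to 26.9 CPM in the other 6. Of the 14 markers found, 6 (Ptx3, Tnfaip6, Ptgs2, Inha, Inhba and Fst) were higher in all 3 than in any other library, while Amh was at 0 in all 3 and Cyp19a1 lay between 6.78 and 18.3 CPM throughout. The part of cumulus RNA in the counts of Hist1h2al was not tested. The H2A genes Hist1h2aa and Hist1h2ah lay at 167 to 280 and 63.4 to 121 CPM in all 9 libraries. Without the 3 libraries, an alternative added after the data were seen, no member was called in any comparison. Those fits left 2 libraries per group, and the main fits had also called no member. The absence of calls therefore says nothing about what the 3 libraries contribute.

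**Figure D5:**
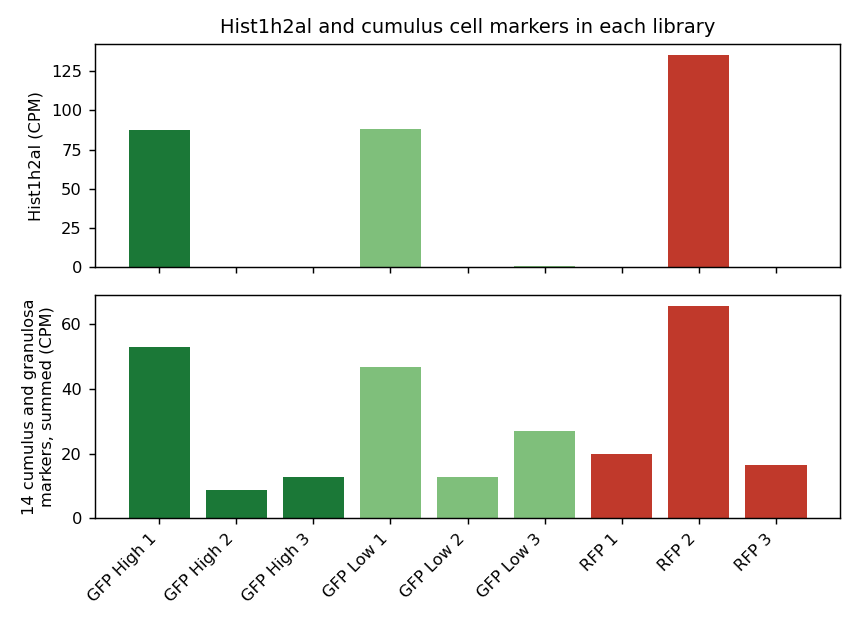
Level of Hist1h2al in CPM (top) and the summed level of 14 cumulus and granulosa markers in CPM (bottom) in each library, as bars starting at 0 and coloured by group. GFP High 1, GFP Low 1 and RFP 2 are the highest in both panels.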

How the data were processed

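Raw counts per gene were deposited in 3 tables, 1 per pair of groups. The submitters' processing notes name fastp, HISAT2 2.0.5, featureCounts 1.5.0-p3, DESeq2 1.20.0 and mm10; settings are not given in the sources used here. The deposited normalised signal (counts divided by size factors) and the authors' FPKM values per the file headers entered no test. The deposited log2 fold changes and p-values are the authors' own and are quoted only as theirs. The tables were joined into 30153 genes by 9 libraries, with 178 genes a table lacked set to 0. The members and lists were chosen with earlier results of these data known. Pairs of groups were tested on 6 libraries each with edgeR 4.0.16 (R 4.3.3; filterByExpr, TMM, quasi-likelihood, no covariate), Benjamini-Hochberg adjusted over all genes, threshold 0.05. The procedure was run on simulated data, and the limits for passing were replaced after a result was seen. How often it finds small differences is not given here. Parents were matched with blastn 2.17.0 on GENCODE M21 transcripts. Named members are those called, the 5 smallest p per comparison, the 10 highest per kb, the 3 most variable, those next to the 20 CPM limit, and the 2 highest per role. Alternatives used DESeq2 1.42.0 and limma 3.58.1 among others. CPM intervals would cover counting error only, as reads carry no molecular identifiers.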

Additional observations from a re-analysis of the deposited data

How the results depend on the processing

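Leaving out the filter on low counts changed the calls most: edgeR then called 3 members in GFP High against RFP (Gpx4-ps2, Gm10250, Gm12751), 2 in GFP Low against RFP (Gm10250, Hist1h2al), 3 in GFP High against GFP Low (Gpx4-ps2, Gm10250, Gm13092) and 1 parent gene (Gpx4) in the last. The cause was not tested. In GFP High against RFP, DESeq2 called 1 member and the replicate block called 1, Gpx4-ps2 in both (adjusted p = 0.0420 with the block). How many genes of all kinds were called in these settings is not given here, so these calls stand without a background share. Same-numbered libraries had correlations of deviations between -0.106 and 0.120, so the numbers were not taken to pair the samples. Leaving out each library in turn gave 0 calls of members in every comparison. The share of counts moved with membership: it was 1.11%, 1.03% and 1.02% in GFP High, GFP Low and RFP at 10 CPM or more, 0.864%, 0.809% and 0.804% at 50 CPM or more, and 0.898% in GFP Low for members without exon overlap. Leaving out 1 library gave 0.970% to 1.04%, 0.932% to 0.970% and 0.913% to 0.975%. The copy exceeded its parent in 65 of 95 pairs per kb but in 26 in CPM without length, so the majority turned with the scale. Without RFP 3, members above 0 in GFP Low against RFP fell from 57 to 44 and their median turned to -0.02. Without GFP High 2, ribosomal protein copies above 0 in GFP High against GFP Low went from 13 to 7 of 16. Alternatives for parent genes, lengths and counts above 0 were added after the data were seen.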
